A study of Mus musculus with 12 samples.

Results

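The expression of 10 genes of Wnt signalling and of the crypt base was followed in the proximal colon of mice with or without the long noncoding RNA EPR. The genes were Lgr5, Lgr4, Rnf43, Znrf3, Axin2, Ascl2, Sox9, Smoc2, Ephb2 and Cd44, chosen by name as targets of the pathway or as genes of crypt stem cells and progenitors. They are 10 of 55376 genes in the count table, and 10 of 10 were among the 15952 genes tested. Total RNA was sequenced from the proximal part of the colon of 12 mice at an age of 12 weeks. There were 6 EPR fl/fl mice and 6 EPR cKO mice, and each gave 1 library. EPR fl/fl mice, labelled wt, carry loxP sites around the EPR promoter and first exon and were the controls. EPR cKO mice carry the same floxed allele together with a Cre recombinase driven by the CDX2 promoter, which is active in epithelial cells of the large bowel and of the last part of the ileum. The tissue was frozen whole, so that muscle, stroma, nerves, vessels and immune cells, in which this Cre is not meant to act, contributed RNA to each library.

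In canonical Wnt signalling, Wnt ligands bind Frizzled receptors and Lrp co-receptors, and beta-catenin escapes a destruction complex and activates target genes with TCF factors. R-spondins, secreted by stromal cells, bind Lgr receptors and hold back the ligases Rnf43 and Znrf3, which otherwise remove Frizzled from the cell surface. In the colon the pathway is active at the base of the crypt, where it maintains the Lgr5-positive stem cells from which the epithelium is renewed.

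Total counts ranged from 13093904 to 30727736 in EPR fl/fl and from 18468123 to 33211041 in EPR cKO. Levels are given as counts per 1000000 library counts (CPM) scaled by the trimmed mean of M values (TMM). EPR is counted under the symbol Smim31. Its level was 39.4 ± 14.5 CPM in EPR fl/fl against 0.132 ± 0.151 CPM in EPR cKO (mean ± SD, n = 6 each), so that every library matched its genotype label. Epcam, a surface protein of epithelial cells, stood at 1284 ± 123 CPM in EPR fl/fl against 1476 ± 206 CPM in EPR cKO. The summed level of 14 epithelial marker genes ranged from 10230 to 14357 CPM in EPR fl/fl and from 11500 to 17689 CPM in EPR cKO. The summed level of 9 smooth muscle markers ranged from 2903 to 5086 CPM in EPR fl/fl. In EPR cKO it was 8742 CPM in replicate 1 and between 976 and 2553 CPM in the other 5 libraries. A composition score, the mean log2 CPM of the epithelial list minus that of the smooth muscle list, ran from 0.68 to 1.41 in EPR fl/fl, was -0.30 in EPR cKO replicate 1 and ran from 1.75 to 3.27 in the other EPR cKO libraries. Genotype and tissue composition therefore moved together except in 1 library, and values without this library are given beside the results it changes. In whole tissue, fewer cells of a type and less RNA per cell cannot be told apart.

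None of the 10 genes passed an adjusted p of 0.05 in edgeR's quasi-likelihood test over all 15952 genes. In the same test 1.57% of all genes were called lower and 0.884% higher in EPR cKO. Lgr5 had the largest difference of the 10 and came closest to the threshold. Of the 10 genes, 6 had a lower and 4 a higher estimate in EPR cKO, with a median log2 fold change of -0.15, against a median of 0.02 over all tested genes, of which 47.1% had a negative estimate. At an unadjusted p under 0.05, 4 of the 10 were lower (Lgr5, Axin2, Smoc2 and Rnf43) and 2 were higher (Lgr4 and Cd44), while 7.12% of all genes were lower and 11.1% higher by that rule. For 0 of the 10 did all 6 libraries of 1 group lie outside the range of the other, which occurred for 1.47% of all genes in the lower and 1% in the higher direction. DESeq2 called 1 of the 10 lower and 1 higher, where it called 2.97% of all genes lower and 2.76% higher. With limma-voom 1 was called lower and 0 higher, against 2.05% and 1.1% of all genes. With limma-voom quality weights 2 were lower and 2 higher, against 11.9% and 8.6% of all genes. Without EPR cKO replicate 1, edgeR called 2 lower (Lgr5 and Smoc2) and 2 higher (Lgr4 and Cd44), in a fit that called 14.4% of all 15836 genes tested lower and 7.44% higher. That library thus changed the calls over all genes as well as those of the 10.

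**Figure D1:**
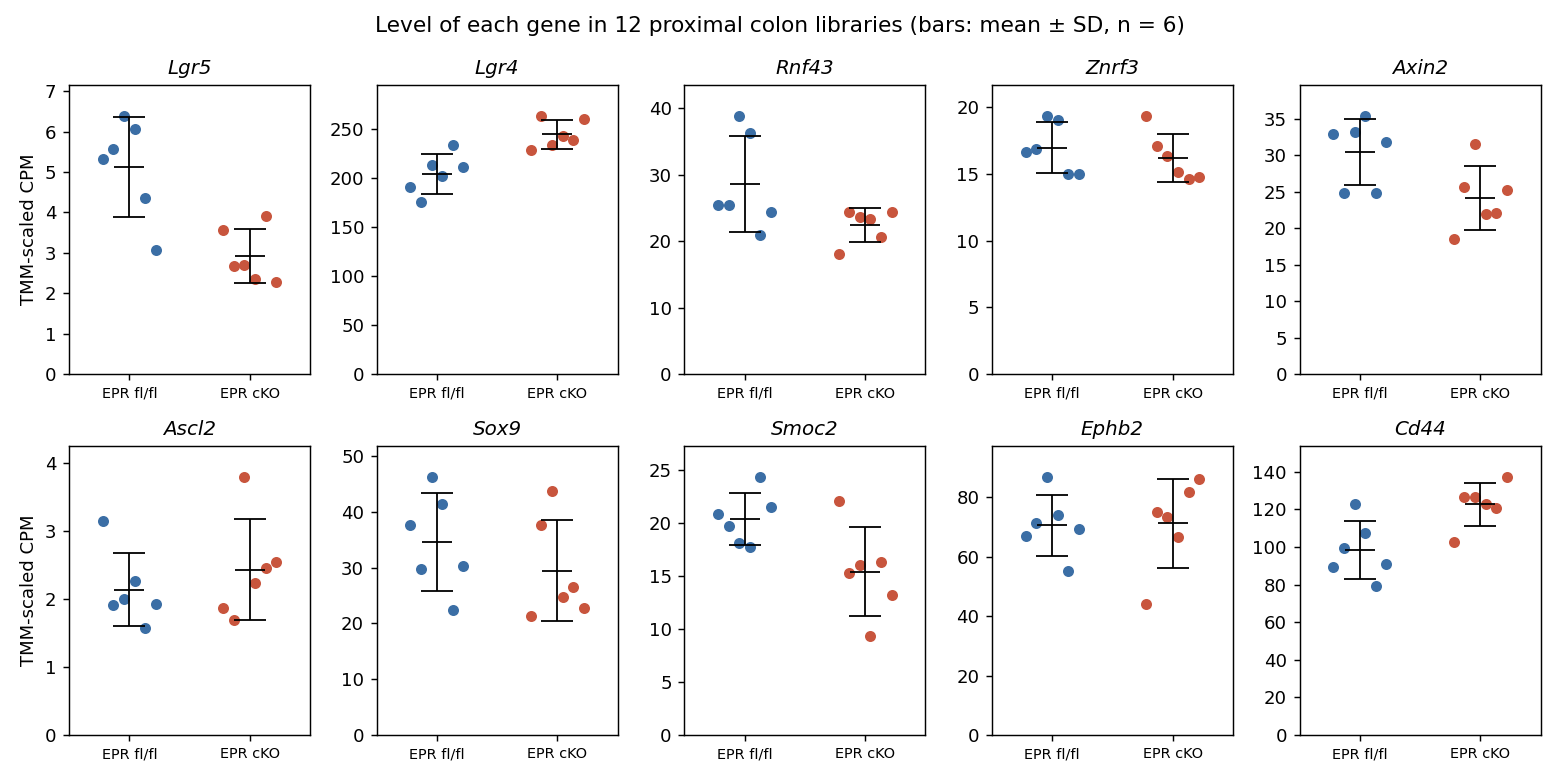
Each panel shows 1 gene and each point 1 library, with the TMM-scaled CPM on a linear axis from 0 and EPR fl/fl in blue beside EPR cKO in red. Black bars give the mean ± SD of 6 libraries. Lgr5 lies between 2.28 and 3.92 CPM in EPR cKO and between 3.06 and 6.39 CPM in EPR fl/fl, and the 2 groups overlap in all 10 panels.

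The R-spondin receptors Lgr5 and Lgr4 had estimates of opposite sign. Lgr5, the receptor that marks the cycling stem cells of the crypt base, is on chromosome 10 at 115450311 to 115587780 (mm10, minus strand). In EPR fl/fl replicates 1 to 6 it reached 5.33, 5.57, 6.39, 6.06, 4.36 and 3.06 CPM. In EPR cKO replicates 1 to 6 it reached 3.57, 2.66, 2.70, 2.36, 3.92 and 2.28 CPM. Thus 4 of 6 EPR cKO libraries lay below all EPR fl/fl libraries, and the overlap came from EPR fl/fl replicate 6, which lay below EPR cKO replicates 1 and 5. The group means were 5.13 ± 1.23 and 2.92 ± 0.67 CPM. The log2 fold change was -0.82 (SE 0.20, 95% interval -1.26 to -0.37), with an adjusted p of 0.0567 (edgeR). These levels rest on 43 to 202 counts per library, the thinnest of the group after Ascl2. Without EPR fl/fl replicate 6 the adjusted p was 0.0193, without EPR cKO replicate 1 it was 0.0113 and without EPR cKO replicate 5 it was 0.0480, while it stayed above 0.05 when any of the other 9 libraries was left out. DESeq2 gave an adjusted p of 0.00617. Some 0.647% of the 50-base stretches of Lgr5 transcripts also occur in transcripts of other genes, and the share of its reads that this concerned was not measured.

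Lgr4, which binds the same ligands and is expressed along the whole crypt, lies on chromosome 2 at 109917647 to 110014257. It had a lowest, median and highest level of 175, 206 and 233 CPM in EPR fl/fl and of 228, 240 and 263 CPM in EPR cKO. Of the EPR cKO libraries 4 lay above all controls, and replicates 1 and 3 lay below EPR fl/fl replicate 5. EPR cKO was higher by 0.26 on the log2 scale (SE 0.08, 95% interval 0.10 to 0.42), with an adjusted p of 0.0963. Without EPR cKO replicate 1 the adjusted p was 0.0358, in the fit that called 7.44% of all genes higher. Per kilobase of exon, Lgr4 was the most abundant of the 10 genes, with 40.3 ± 4.0 CPM per kb in EPR fl/fl, and Lgr5 the least, with 1.09 ± 0.26 CPM per kb.

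A ratio of counts of a gene pair within a library does not depend on how libraries are scaled. The log2 ratio of Lgr5 to Lgr4 had a lowest, median and highest value of -6.09, -5.10 and -4.97 in EPR fl/fl and of -6.81, -6.52 and -5.92 in EPR cKO. EPR fl/fl replicate 6 was the only control library inside the EPR cKO range. The mean ratio was lower in EPR cKO by a log2 difference of -1.06 (SE 0.24), with an exact two-sided permutation p of 0.00649 over all assignments of 6 of the 12 libraries to a group, and 0.0130 after adjustment over the 2 ratios tested. The smallest p this design allows is 0.00216. Leaving out each of the 12 libraries in turn gave differences from -1.21 to -0.98, with exact p values up to 0.0130. The ratio of the receptor pair thus differed between the genotypes. Tissue composition can still enter a ratio within a library, and its part in this difference was not tested. The ratio was chosen with earlier results of these data known. The permutation test shares its Lgr5 and Lgr4 counts with the comparisons above and is not separate evidence for either gene.

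**Figure D2:**
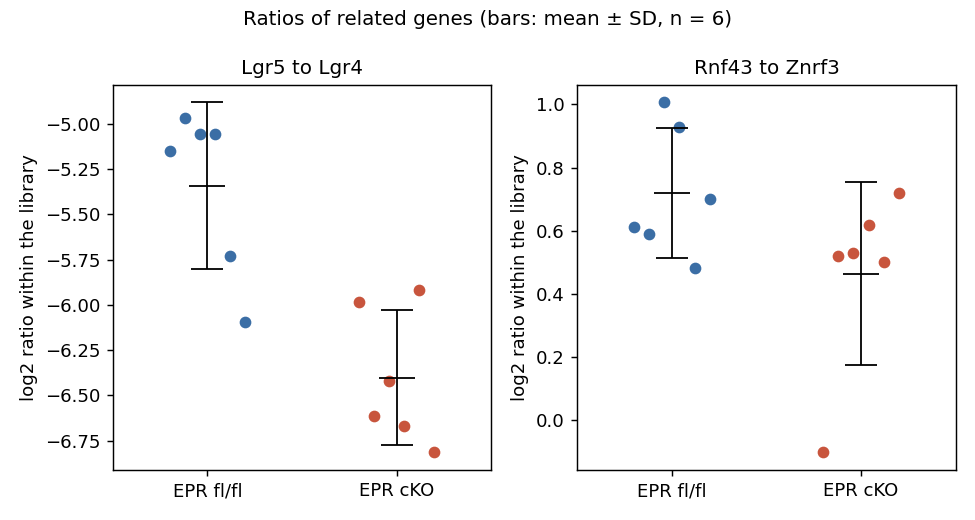
Each point is 1 library, with the log2 ratio of counts of Lgr5 to Lgr4 on the left and of Rnf43 to Znrf3 on the right, EPR fl/fl in blue and EPR cKO in red, and bars for the mean ± SD of 6 libraries. The Lgr5 to Lgr4 ratio averages -5.34 in EPR fl/fl against -6.40 in EPR cKO. For Rnf43 to Znrf3 the averages are 0.72 and 0.46, and 1 EPR cKO library lies below the rest.

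The feedback inhibitors of the pathway, all Wnt targets themselves, had estimates below 0 and did not pass the test. Rnf43, the ubiquitin ligase that removes Frizzled receptors, lies on chromosome 11 at 87663087 to 87735539. Its lowest, median and highest levels were 20.9, 25.4 and 38.8 CPM in EPR fl/fl against 18.0, 23.4 and 24.4 CPM in EPR cKO. EPR fl/fl replicates 3 and 4 stood above 36 CPM, and the other 4 controls lay in or close to the EPR cKO range. On the log2 scale the difference was -0.35 (SE 0.15), at an adjusted p of 0.237. Its relative Znrf3, on the same chromosome at 5276324 to 5444847, had medians of 16.8 CPM in EPR fl/fl against 15.8 CPM in EPR cKO, with ranges of 14.9 to 19.3 and 14.6 to 19.3 CPM. The ranges of Znrf3 covered each other almost entirely, and its log2 fold change was -0.07 (95% interval -0.28 to 0.14, adjusted p = 0.723). The ratio of Rnf43 to Znrf3 differed by -0.26 on the log2 scale (SE 0.14), with an exact permutation p of 0.102, and for this pair unequal change was not shown. Without EPR cKO replicate 1 the difference was -0.14 (exact permutation p 0.206).

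Axin2, a scaffold of the destruction complex and a widely used reporter of canonical Wnt activity, lies on chromosome 11 at 108920349 to 108950783. Its lowest, median and highest levels were 24.8, 32.3 and 35.4 CPM in EPR fl/fl against 18.6, 23.7 and 31.5 CPM in EPR cKO. Of the EPR cKO libraries 3 lay below all controls, and EPR cKO replicate 3 came close to the median control. Its log2 fold change was -0.34 (SE 0.13, 95% interval -0.62 to -0.05), with an adjusted p of 0.204. When libraries were scaled to the epithelial markers in place of TMM, which lowers the median of all genes by 0.24 on the log2 scale, the estimate was -0.60 with an adjusted p of 0.0300, in a fit that called 2.48% of all genes lower and 0.094% higher. Exons of Gm11670 on the other strand cover 4.86% of the Axin2 exons, and whether reads were counted by strand is not stated.

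Axin2 and Rnf43 moved together over the libraries, with a Pearson r of 0.774 and a Spearman rho of 0.825 over 12 libraries (permutation p 0.0015 and 0.00147, adjusted p 0.0299 and 0.0331 over 45 pairs). The r was 0.702 within EPR fl/fl against 0.766 within EPR cKO (n = 6 each, exact permutation p 0.111 and 0.0847), and 0.732 without the 2 libraries farthest from the Rnf43 median. The start regions of this pair are shown because the genes are both described as direct targets of TCF factors and can be compared for the letters that such factors bind. Each is the 250 bases before the RefSeq start (GRCm38.p6), on the gene's strand, with CG pairs in capitals. For Rnf43 the table holds another start downstream, and the first is printed.
Axin2, chr11:108920099-108920348, plus strand: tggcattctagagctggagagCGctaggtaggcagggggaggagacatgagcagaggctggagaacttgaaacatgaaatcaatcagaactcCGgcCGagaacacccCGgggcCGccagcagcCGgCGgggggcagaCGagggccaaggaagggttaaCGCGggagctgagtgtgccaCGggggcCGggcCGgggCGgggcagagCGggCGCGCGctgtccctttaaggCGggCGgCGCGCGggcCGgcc
Rnf43, chr11:87662837-87663086, plus strand: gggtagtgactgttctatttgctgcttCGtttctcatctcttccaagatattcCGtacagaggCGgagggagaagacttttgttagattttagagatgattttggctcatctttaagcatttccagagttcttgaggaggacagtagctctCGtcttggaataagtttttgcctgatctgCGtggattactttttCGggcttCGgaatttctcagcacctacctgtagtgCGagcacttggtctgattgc
The Axin2 window holds 24 CG pairs, more than 88% of the 32851 windows of this length in the table, and the Rnf43 window holds 8, more than 57% of them. Of the letters that TCF factors bind, only the form CTTTGA was searched, on either strand. These letters occur in 0 of these windows and in 0 of the 7 windows found for 6 of the 10 genes (Ascl2, Axin2, Cd44, Ephb2, Lgr4 and Rnf43). They occur in 13.8% of all windows. The absence says only that these letters are not within 250 bases before the annotated starts.

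Among factors of stem cells and progenitors, Smoc2 differed most and Ascl2 least. Smoc2 encodes a secreted matrix protein enriched in Lgr5-positive cells, which stromal cells also make. It lies on chromosome 17 at 14279506 to 14404790. Its levels in the 6 EPR fl/fl replicates were 20.9, 19.7, 18.1, 17.7, 24.4 and 21.6 CPM, and those in EPR cKO replicates 1 to 6 were 22.1, 15.3, 16.0, 9.32, 16.4 and 13.2 CPM. Here 5 of 6 EPR cKO libraries lay below all controls, and EPR cKO replicate 1, the library rich in smooth muscle markers, lay among the higher controls. For Smoc2 the log2 fold change was -0.40 (SE 0.17) with an adjusted p of 0.222, and -0.55 (SE 0.14) with an adjusted p of 0.0174 without EPR cKO replicate 1. With the composition score as a covariate it was -0.19 (SE 0.15, adjusted p = 0.632).

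Sox9, a transcription factor of crypt base cells, lies on chromosome 11 at 112782224 to 112787760 and varied widely in both groups. The lowest, median and highest levels were 22.4, 34.0 and 46.4 CPM in EPR fl/fl against 21.3, 25.6 and 43.8 CPM in EPR cKO. Its log2 fold change of -0.24 had a 95% interval of -0.69 to 0.21 (adjusted p = 0.562). Ascl2, the transcription factor that maintains the Lgr5-positive state, lies on chromosome 7 at 142966829 to 142969264. It was detected at 1.57 to 3.14 CPM in EPR fl/fl and at 1.69 to 3.80 CPM in EPR cKO, with medians of 1.96 and 2.34. Its log2 fold change of 0.19 had a 95% interval of -0.29 to 0.67 (adjusted p = 0.664), so that changes of either sign were compatible with the spread, and its sign turned when libraries were scaled to epithelial markers (-0.08).

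The surface receptors of the lower crypt had estimates at or above 0. Cd44, a hyaluronan receptor and Wnt target, lies on chromosome 2 at 102811141 to 102901665 and is also present on immune and stromal cells. Its lowest, median and highest levels were 79.2, 95.2 and 123 CPM in EPR fl/fl against 103, 125 and 137 CPM in EPR cKO. Only EPR fl/fl replicates 3 and 4 reached into the EPR cKO range. For Cd44 the log2 fold change was 0.32 (SE 0.10, 95% interval 0.10 to 0.54, adjusted p = 0.127), and 0.35 with an adjusted p of 0.0197 without EPR cKO replicate 1. Scaled to epithelial markers it was 0.06 (adjusted p = 0.761). Ephb2, a receptor that keeps progenitors positioned low in the crypt, lies on chromosome 4 at 136647539 to 136835988. It ranged from 55.4 to 87.0 CPM in EPR fl/fl and from 44.1 to 86.3 CPM in EPR cKO, the lowest value being EPR cKO replicate 1. Its log2 fold change was 0.01 (95% interval -0.30 to 0.33, adjusted p = 0.974), and its sign changed among scalings, for example to -0.27 against epithelial markers.

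**Figure D3:**
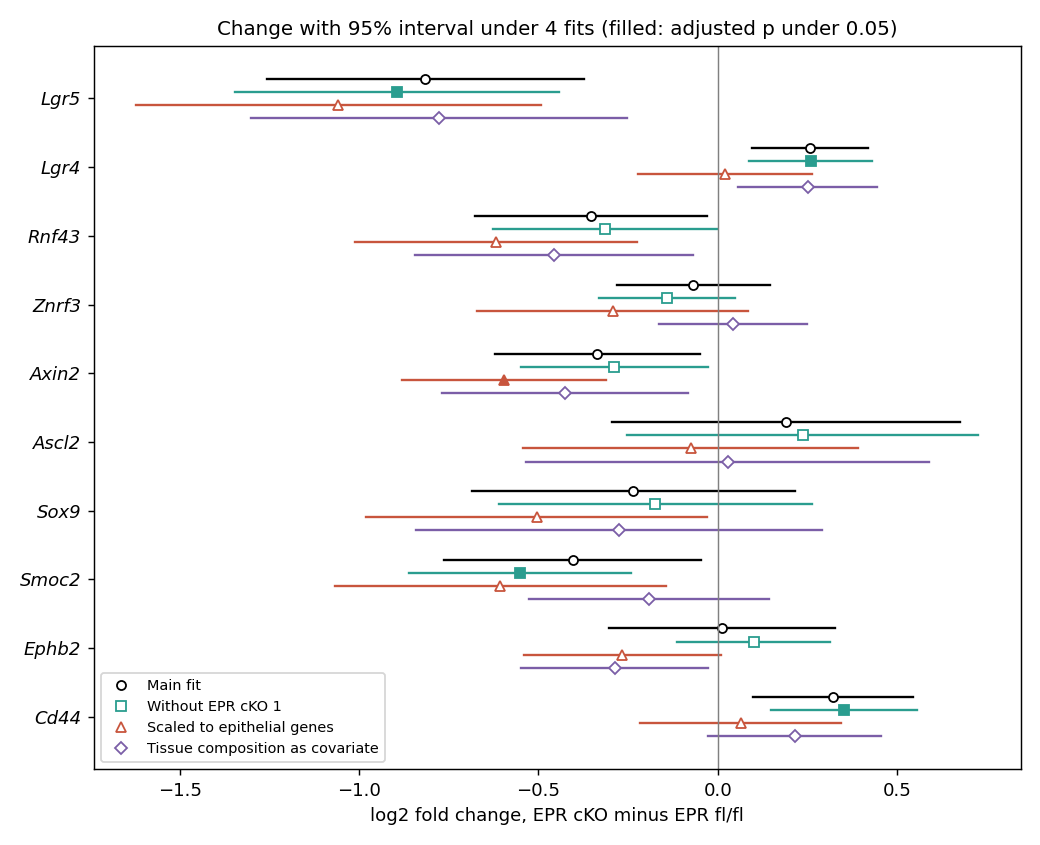
The log2 fold change of each gene, EPR cKO minus EPR fl/fl, is shown with its 95% interval under 4 fits, and a filled symbol has an adjusted p under 0.05. Lgr5 lies between -1.06 and -0.78 in the 4 fits, whereas the estimates of Lgr4 and Cd44 move to 0.02 and 0.06 when libraries are scaled to epithelial genes.

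The r of the 10 genes with the composition score varied in sign, and 1 of them, Smoc2, passed adjustment. Differences between the genes were not tested. Smoc2 was lower in libraries with a higher composition score, with r = -0.762 and rho = -0.874 over 12 libraries (permutation p 0.00311 and 0.0004, adjusted p 0.0311 and 0.004 over 10 genes). It was -0.842 without the 2 libraries of most extreme score, -0.489 within EPR fl/fl against -0.671 within EPR cKO (n = 6 each, exact permutation p 0.338 and 0.183), so that within 1 genotype the relation was not resolved. For Ephb2 the r was 0.654 (permutation p 0.0193, adjusted p 0.067) and for Cd44 0.665 (permutation p 0.0201, adjusted p 0.067), with rho of 0.538 and 0.657 (adjusted p 0.182 and 0.12). Their r was 0.278 and 0.285 within EPR fl/fl (exact permutation p 0.613 and 0.586, unadjusted). Within EPR cKO it was 0.913 and 0.811 (exact permutation p 0.0389 and 0.0819, unadjusted). For Lgr5 the pooled r was -0.498 (permutation p 0.0988, adjusted p 0.198), with r = 0.466 within EPR fl/fl against -0.339 within EPR cKO. Znrf3 had r = -0.63 (permutation p 0.0295, adjusted p 0.0737), rho = -0.503 (adjusted p 0.182) and r = -0.441 without the 2 libraries farthest from the median score. Its r was 0.351 within EPR fl/fl and -0.988 within EPR cKO (exact permutation p 0.518 and 0.00139, unadjusted). EPR cKO replicate 1, lowest in score, had the highest Znrf3 of its group (19.3 CPM), and the r without it was not computed. Lgr4 had r = 0.452 (permutation p 0.139, adjusted p 0.232), with r = -0.945 within EPR fl/fl and 0.433 within EPR cKO (exact permutation p 0.00833 and 0.407, unadjusted). The r of these 2 genes thus had opposite signs in the 2 genotypes, a difference that was not tested. Rnf43, Axin2, Sox9 and Ascl2 had pooled r from -0.135 to 0.426, with adjusted permutation p of r of 0.24 or more. The score separated the genotypes except for EPR cKO replicate 1, so that a pooled r mixes genotype with composition. With the score as a covariate, the estimate was -0.78 for Lgr5 (SE 0.24, adjusted p = 0.129), -0.43 for Axin2 (SE 0.16, adjusted p = 0.216) and -0.46 for Rnf43 (SE 0.18, adjusted p = 0.240). These 3 estimates stayed near those without the covariate or moved away from 0. Smoc2, Cd44 and Ascl2 (from 0.19 to 0.03) moved towards 0. Ephb2 moved most, from 0.01 to -0.29 (adjusted p = 0.277), and Znrf3 changed sign, from -0.07 to 0.04. Lgr4 (from 0.26 to 0.25) and Sox9 (from -0.24 to -0.28) changed little. Because only EPR cKO replicate 1 breaks the link of score and genotype, this fit cannot tell genotype and composition apart for these genes.

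**Figure D4:**
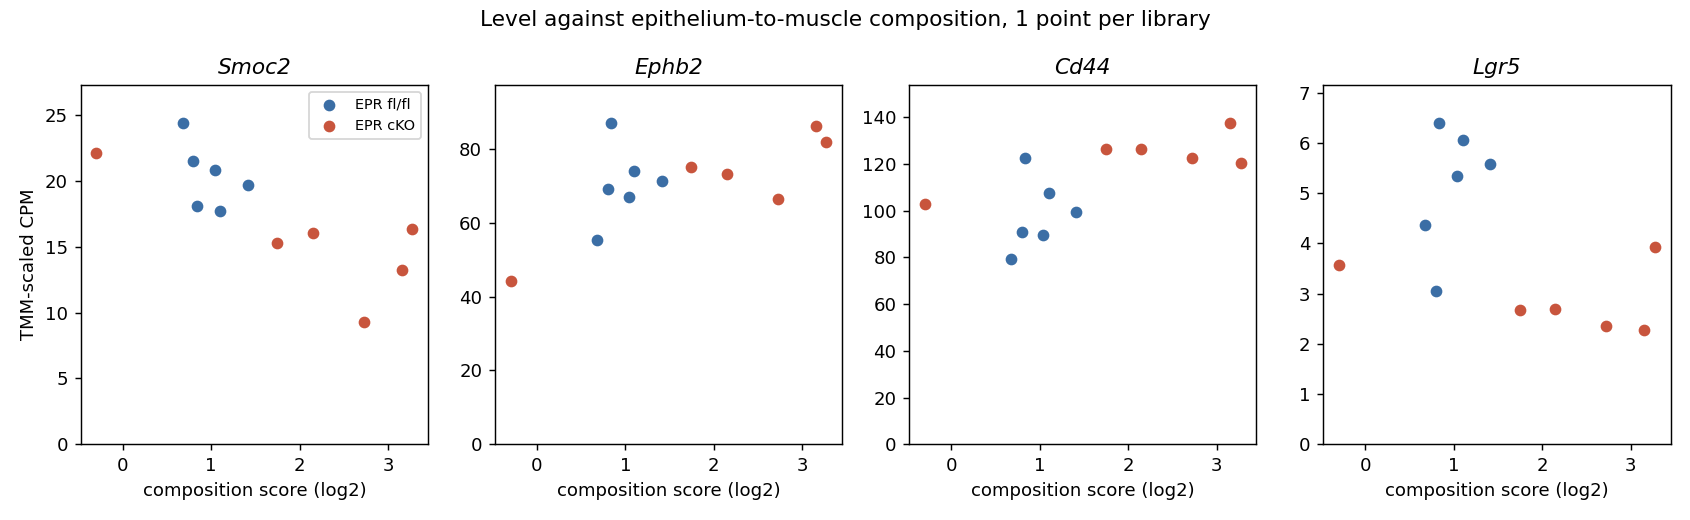
Levels of 4 genes in TMM-scaled CPM are plotted against the composition score, the mean log2 level of epithelial minus smooth muscle markers, with 1 point per library. EPR cKO replicate 1 sits at a score of -0.30, left of all controls, and the other EPR cKO libraries sit at 1.75 or above, right of all controls.

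Relative to the mean log2 level of the epithelial markers, a description with no test, Lgr5 differed by -1.03, Smoc2 by -0.68, Axin2 by -0.58, Rnf43 by -0.56, Sox9 by -0.49, Znrf3 by -0.31 and Ephb2 by -0.25 on the log2 scale. Ascl2 differed by -0.08, Lgr4 by 0.02 and Cd44 by 0.09. On this scale 8 of the 10 genes and 86.6% of all tested genes had lower values in EPR cKO, so that the sign alone says little of a gene.

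Among the 45 pairs of the 10 genes, 5 had an adjusted permutation p of Pearson's r under 0.05 over 12 libraries. Besides Axin2 with Rnf43, these were Axin2 with Sox9 (r = 0.819), Rnf43 with Sox9 (r = 0.749), Smoc2 with Cd44 (r = -0.765) and Lgr5 with Lgr4 (r = -0.764). Their rho values were 0.804, 0.755, -0.839 and -0.755 (permutation p 0.00275, 0.00581, 0.0013 and 0.00593, adjusted p 0.0413, 0.0534, 0.0331 and 0.0534), so that by rank Rnf43 with Sox9 and Lgr5 with Lgr4 missed the threshold. The r values without the 2 farthest libraries were 0.749, 0.61, -0.903 and -0.765 (pooled permutation p 0.00199, 0.00149, 0.00297 and 0.00382, adjusted p 0.0299, 0.0299, 0.0334 and 0.0344). For Lgr5 with Lgr4 the r was -0.336 within EPR fl/fl against -0.595 within EPR cKO (exact permutation p 0.506 and 0.194). Both had the sign of the pooled r, but the relation was not resolved within a genotype at this n. Rnf43 and Cd44, picked from the 45 pairs for these values, had a high r within each genotype and a low pooled r. Their pooled r was 0.189 (permutation p 0.559). It was 0.944 within EPR fl/fl against 0.922 within EPR cKO (n = 6 each, exact permutation p 0.00556 and 0.00694, unadjusted). The estimates of the pair between genotypes had opposite signs. A high r within each genotype was not particular to this pair. Ephb2 with Cd44 had 0.965 within EPR fl/fl and 0.916 within EPR cKO, with a pooled r of 0.591. Of the 45 pairs, 18 had an r over 0 in both genotypes. Genes measured in the same library share its depth and tissue composition, which enter every such correlation.

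The genes whose log2 CPM followed Lgr5 most closely over 12 libraries were Zfp260 (r = 0.965), Nexmif (r = 0.961), Klhdc2 (r = 0.954), Insrr (r = 0.951) and Fgfr3 (r = 0.946), picked as the highest among 15952 genes and given as a description. Insrr, a receptor tyrosine kinase of the insulin receptor family, fell from 7.23 to 0.821 CPM (log2 fold change -3.13, SE 0.44, adjusted p = 0.00201). Fgfr3, a fibroblast growth factor receptor, fell from 24.0 to 11.8 CPM (log2 fold change -1.02, SE 0.16, adjusted p = 0.00415). The other 3 did not pass the test, with log2 fold changes from -0.62 to -0.18.

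Of 12 further Wnt targets, 9 were tested, and 6 had lower and 3 higher estimates with a median of -0.11. In edgeR 0 passed at adjusted p under 0.05, where 1.57% of all genes were called lower and 0.884% higher. At an unadjusted p under 0.05, 1 was lower and 0 higher, against 7.12% and 11.1% of all genes. DESeq2 and limma-voom also called 0. Limma-voom with quality weights called 4 lower and 1 higher, against 11.9% and 8.6% of all genes. EdgeR without EPR cKO replicate 1 called 4 lower and 0 higher, against 14.4% and 7.44% of all genes. The most abundant per length were Ccnd1, a cyclin of the first growth phase (71.2 ± 14.1 CPM in EPR fl/fl against 84.0 ± 15.4 CPM in EPR cKO, log2 fold change 0.24, adjusted p = 0.405), and Cdca7, a cell cycle gene (33.3 ± 2.9 and 38.6 ± 9.6 CPM, log2 fold change 0.21, adjusted p = 0.470). Lef1, Notum and Sp5 were too low to test, with at most 37 counts in a library. Of 12 further genes of crypt stem cells, 11 were tested, and 6 had lower and 5 higher estimates with a median of -0.10. In edgeR 1 was called lower and 0 higher, where 1.57% and 0.884% of all genes were. At an unadjusted p under 0.05, 3 were lower and 1 higher, against 7.12% and 11.1%. DESeq2 called 1 lower and 1 higher (2.97% and 2.76% of all genes), and limma-voom 1 and 0 (2.05% and 1.1%). Limma-voom with quality weights called 2 lower and 1 higher (11.9% and 8.6%). EdgeR without EPR cKO replicate 1 called 3 lower and 1 higher, against the same 14.4% and 7.44% of all genes. The gene that passed with all libraries was Soat1, a cholesterol-esterifying enzyme. Its lowest, median and highest levels were 41.4, 58.0 and 84.2 CPM in EPR fl/fl against 33.9, 36.9 and 37.3 CPM in EPR cKO. All 6 EPR cKO libraries lay below all controls, as for 1.47% of all genes, and close to each other. Soat1 had a log2 fold change of -0.72 with an SE of 0.14 and an adjusted p of 0.0143, and it passed in 10 of 10 alternative fits and in 12 of 12 fits without 1 library. Prom1, a membrane glycoprotein, had 585 ± 42 CPM in EPR fl/fl against 684 ± 57 CPM in EPR cKO (log2 fold change 0.23, adjusted p = 0.151), and Slc12a2, a sodium, potassium and chloride cotransporter, had 474 ± 98 and 394 ± 43 CPM (log2 fold change -0.27, adjusted p = 0.303). Olfm4, a stem cell marker of the human colon and mouse small intestine, was not tested, with at most 3 counts in a library.

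Upstream of the receptors, most ligands were low, and none was called by edgeR with all 12 libraries. Of 15 Wnt ligands and R-spondins, 8 were tested, and 7 had lower and 1 a higher estimate with a median of -0.40. In edgeR 0 passed, where 1.57% of all genes were called lower and 0.884% higher. At an unadjusted p under 0.05 there were also 0 in either direction, against 7.12% of all genes lower and 11.1% higher. DESeq2 and limma-voom called 0 as well, and limma-voom with quality weights called 2 lower, where it called 11.9% of all genes lower. Wnt5a, a ligand of the mesenchyme, had a median of 17.1 CPM in EPR fl/fl against 10.1 CPM in EPR cKO (log2 fold change -0.59, adjusted p = 0.301), and Wnt2b 9.43 and 5.82 CPM (log2 fold change -0.32, adjusted p = 0.631). Of 12 Wnt and BMP inhibitors, secreted except for the receptor Kremen1, 10 were tested. Lower estimates were found for 9, with a median of -0.21 over the 10. In edgeR 0 passed, with 1 lower at an unadjusted p under 0.05, where 7.12% of all genes were. DESeq2 and limma-voom called 0 inhibitors, and limma-voom with quality weights called 2 lower, against the same 11.9% of all genes. Among them Dkk3 ranged from 22.9 to 37.9 CPM in EPR fl/fl and from 11.6 to 60.8 CPM in EPR cKO (log2 fold change -0.38, adjusted p = 0.606), and Kremen1, a receptor of Dkk proteins, differed by -0.03 (95% interval -0.23 to 0.17, adjusted p = 0.880). With the composition score as a covariate, the median was 0.003 for the ligands and 0.15 for the inhibitors, neither below 0, and 0 passed in either list. In that fit the median was 0.05 for smooth muscle markers and 0.15 for fibroblast markers. The score is made with the smooth muscle markers and separated the genotypes except for EPR cKO replicate 1. Genotype and composition can therefore not be told apart for these lists. Without EPR cKO replicate 1, 3 of 8 ligands and 4 of 10 inhibitors were called lower, with medians of -0.80 and -0.69, where 14.4% of all genes were. In the same fit 9 of 9 smooth muscle markers and 3 of 8 fibroblast markers were called lower, against 0 of 9 and 0 of 8 with that library.

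Of 13 Frizzled receptors and co-receptors, 11 were tested, and 8 had lower and 3 higher estimates with a median of -0.18. In edgeR 1 of them, Fzd3, was called lower and 0 higher, where 1.57% and 0.884% of all genes were. At an unadjusted p under 0.05, 2 were lower and 0 higher, against 7.12% and 11.1%. DESeq2 and limma-voom also called 1 lower (2.97% and 2.05% of all genes), and limma-voom with quality weights 2 (11.9%). The median was 0.01 with the composition score as a covariate. Without EPR cKO replicate 1, 3 of 11 were called lower, where 14.4% of all genes were. The lowest, median and highest levels of Fzd3 were 22.4, 24.5 and 29.1 CPM in EPR fl/fl against 14.6, 18.2 and 21.2 CPM in EPR cKO. The groups did not overlap, as for 1.47% of all genes in the lower direction. Fzd3 was lower by a log2 difference of -0.46 (SE 0.10), at an adjusted p of 0.0332. This call was lost with the composition score as a covariate (-0.36, adjusted p = 0.127) and in 8 of 12 fits without 1 library (adjusted p up to 0.0835), namely without any of EPR fl/fl replicates 1, 3, 4 and 6 or EPR cKO replicates 2, 4, 5 and 6. Fzd5 and Lrp6, the most abundant per length of the rest, differed by 0.10 (95% interval -0.13 to 0.33, adjusted p = 0.622) and by -0.10 (95% interval -0.28 to 0.08, adjusted p = 0.551).

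All 17 genes of the destruction complex and its TCF partners were tested, 5 with lower and 12 with higher estimates and a median of 0.07. In edgeR 0 passed, where 1.57% of all genes were called lower and 0.884% higher. At an unadjusted p under 0.05, 1 was lower and 1 higher, against 7.12% and 11.1% of all genes. DESeq2 called 1 higher (2.76% of all genes), limma-voom 0, and limma-voom with quality weights 1 lower and 1 higher (11.9% and 8.6% of all genes). EdgeR called 1 higher with the composition covariate (0.495% of all genes) or without EPR cKO replicate 1 (7.44%). Ctnnb1, which encodes beta-catenin, had a lowest, median and highest level of 774, 836 and 938 CPM in EPR fl/fl and of 853, 1009 and 1141 CPM in EPR cKO. In Ctnnb1 5 EPR cKO libraries stood above all controls, and its log2 fold change was 0.26 (SE 0.08), at an adjusted p of 0.137. Csnk1a1, the kinase that primes beta-catenin for destruction, differed by 0.07 (95% interval -0.08 to 0.22, adjusted p = 0.607).

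The deep crypt secretory cells, the colonic neighbours of the stem cells that share features with Paneth cells and goblet cells, were the list with most calls for its size. All 5 listed markers (Reg4, Kit, Spink4, Cd24a and Agr2) were tested, and 5 had lower estimates with a median of -0.59. Of these 2 passed, Kit and Cd24a (4 at an unadjusted p under 0.05), where 1.57% of all genes were called lower (7.12% unadjusted). Reg4 had the smallest difference of the 5 (-0.28) and did not pass. Without EPR cKO replicate 1, 3 were called lower, where 14.4% of all genes were. With the composition score as a covariate the median was -0.96 and 3 passed, where 1.54% of all genes were called lower and 0.495% higher. Kit, a receptor tyrosine kinase, had a lowest, median and highest level of 76.7, 99.4 and 156 CPM in EPR fl/fl and of 34.6, 38.9 and 75.6 CPM in EPR cKO. The groups of Kit did not overlap, which held for 2 of the 5 markers and for 1.47% of all genes in the lower direction. Kit was lower by a log2 difference of -1.25 (SE 0.21) at an adjusted p of 0.0074, and it passed in 10 of 10 alternative fits and in 12 of 12 fits without 1 library. Kit is also made by the interstitial pacemaker cells of the muscle layer and by mast cells. With the composition score as a covariate it was -0.96 (adjusted p = 0.0156). Cd24a, a surface glycoprotein of crypt base cells and of immune cells, had a lowest, median and highest level of 235, 304 and 415 CPM in EPR fl/fl and of 130, 189 and 213 CPM in EPR cKO, again without overlap. Cd24a differed by -0.76 on the log2 scale (SE 0.16), at an adjusted p of 0.0240. The call of Cd24a was lost in 5 of 12 fits without 1 library (EPR fl/fl replicate 1, 3 or 4 or EPR cKO replicate 2 or 3, adjusted p up to 0.0689), and it was -1.01 (adjusted p = 0.00593) with the composition score as a covariate. Of its 50-base stretches 2.75% are shared with Gm6212. Agr2, a protein disulfide isomerase of secretory cells, differed by -0.59 (SE 0.24, adjusted p = 0.209) and Spink4, a peptide of secretory cells, by -0.49 (SE 0.22, adjusted p = 0.265). Goblet cells make Agr2 and Spink4 as well, so that these markers do not separate the cell types in whole tissue.

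**Figure D5:**
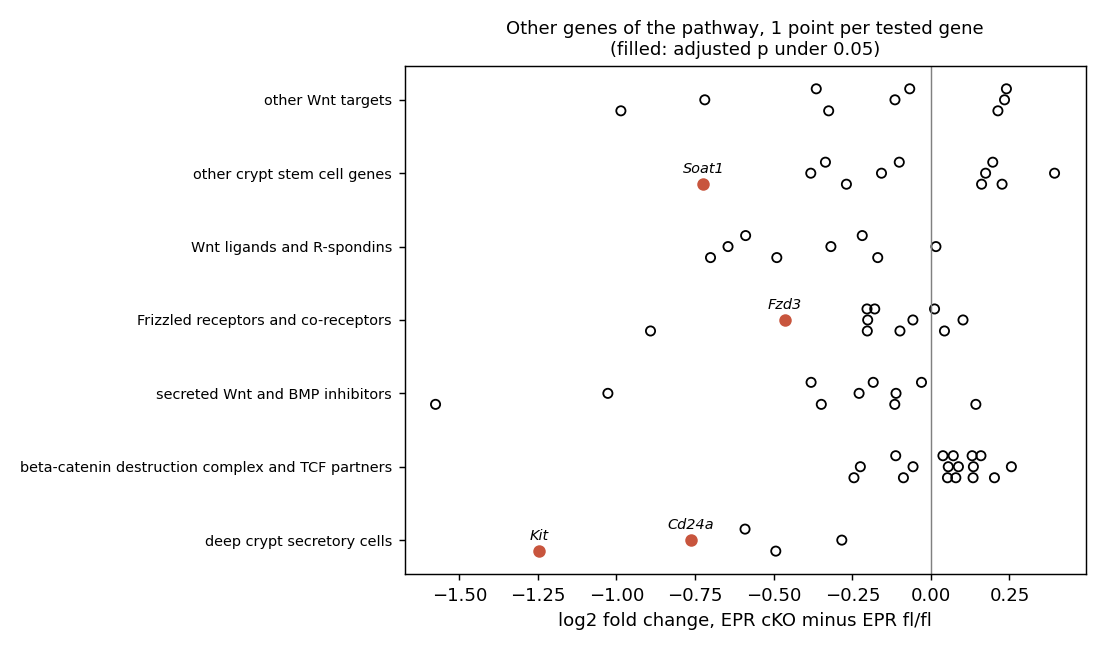
Each point is 1 tested gene of the pathway lists, placed by its log2 fold change, EPR cKO minus EPR fl/fl, and filled where the adjusted p is under 0.05. Soat1, Fzd3, Kit and Cd24a are the 4 filled points, all to the left of 0, and the 17 genes of the destruction complex lie between -0.24 and 0.26.

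Beside these results, markers of other tissues mostly had lower estimates in EPR cKO, and how many were called depended on EPR cKO replicate 1. Lower estimates were found for 9 of 9 smooth muscle, 6 of 8 fibroblast, 8 of 8 neuronal and glial, 5 of 5 endothelial, 8 of 8 tested immune and 5 of 5 adipocyte markers, and higher estimates for 14 of 14 epithelial markers, with 0 called in any list with all 12 libraries. At an unadjusted p under 0.05, 5 of 5 adipocyte markers were lower, 6 of 14 epithelial markers were higher and 0 markers of the other 5 lists passed. By that rule 7.12% of all genes were lower and 11.1% higher. DESeq2 called 1 adipocyte marker lower and 2 epithelial markers higher, against 2.97% and 2.76% of all genes, and limma-voom called 0. With limma-voom quality weights 9 smooth muscle, 2 fibroblast, 2 neuronal and glial, 3 endothelial and 5 adipocyte markers were lower and 6 epithelial markers higher. Of all genes that fit called 11.9% lower and 8.6% higher. Without EPR cKO replicate 1, edgeR called lower 9 of 9 smooth muscle, 3 of 8 fibroblast, 5 of 8 neuronal and glial, 3 of 5 endothelial, 1 of 8 immune and 5 of 5 adipocyte markers, and higher 6 of 14 epithelial markers. Of all genes that fit called 14.4% lower and 7.44% higher. The most abundant markers per length were Krt8 of epithelium with a log2 fold change of 0.42, Actg2 of smooth muscle with -0.53, Dcn of fibroblasts with -0.67, Uchl1 of neurons with -0.70, Pecam1 of endothelium with -0.30, Ptprc of immune cells with -0.26 and Fabp4 of adipocytes with -1.54, at adjusted p from 0.199 to 0.576. The summed level ranged from 541 to 909 CPM in EPR fl/fl and from 232 to 1612 CPM in EPR cKO for fibroblasts, from 28.7 to 61.4 and from 10.1 to 96.6 CPM for neurons and glia, from 46.1 to 58.6 and from 24.9 to 72.0 CPM for endothelium, from 87.3 to 202 and from 91.2 to 126 CPM for immune cells, and from 271 to 999 and from 43.4 to 565 CPM for adipocytes. The part of these cells in the levels of the 10 genes was not tested beyond the covariate and the epithelial scaling.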

How the data were processed

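Per the labels and the methods, RNA was depleted of ribosomal RNA, made into stranded libraries and sequenced on an Illumina NovaSeq. Reads were trimmed, aligned to mm10 with STAR 2.5.3a and assigned to Ensembl genes with featureCounts, and base calling used bcl2fastq 2.20.0.422 (submitters' processing notes). The authors deposited raw counts, with exon coordinates, in 1 table of 55376 genes. The strand setting and the treatment of reads with several alignments are not given in the sources used here. Each column was matched to its sample by name.

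A gene was tested if it reached a CPM of 1 in 4 or more libraries, the filter the study states. edgeR 4.0.16 (R 4.3.3) compared the groups with TMM scaling, the quasi-likelihood F test and Benjamini-Hochberg adjustment over 15952 genes. The SE is the absolute log2 fold change divided by the square root of F, and intervals use the t distribution of the fit. Ratios of counts (0.5 added) were compared by exact permutation. Log2 CPM used a prior count of 2, and correlations, added after the data were seen, 100000 resamples. Alternatives used DESeq2 1.42.0, limma 3.58.1, other scalings, filters and covariates, and left out libraries. The fits and the permutation test of ratios were tested on simulated data.

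The 10 genes, the lists and the rules were chosen with earlier results of these data known. Named genes were the 10, of each pathway list those with adjusted p under 0.05 and the 2 most abundant per length (in EPR fl/fl) of the rest, of each tissue list the most abundant marker, Epcam and Smim31, and the 5 genes most like Lgr5. Depth limits Lgr5 and Ascl2 most: a count of 3 equals 0.0903 to 0.229 CPM before TMM scaling, a floor for counting error only. PCR duplicates were not marked by molecular identifiers.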

Additional observations from a re-analysis of the deposited data

Results flagged for a closer look

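Of 22 sets of 6 libraries, each of 11 genes in each group, 1 held a library far from the others by Dixon's criterion, where chance gives about 1 in 20 sets, or 1.1 of 22. It was Smim31, the symbol under which EPR is counted. EPR cKO replicate 2 had 0.423 CPM (10 counts), while the other EPR cKO libraries had 0 to 0.134 CPM and the controls 21.2 CPM or more. None of the 10 genes of the pathway was set apart in this way in either group.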

How the results depend on the processing

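Each result was recomputed under 10 alternatives and with each of the 12 libraries left out. The count of the 10 genes called lower was 0 in edgeR, 1 with epithelial scaling (Axin2), DESeq2 or limma-voom (Lgr5 in both), and 2 with limma-voom quality weights (Lgr5 and Smoc2), and from 0 to 2 without 1 library. The count called higher was 0 in edgeR, 1 with DESeq2 (Lgr4), 2 with quality weights (Lgr4 and Cd44), and from 0 to 2 without 1 library. Ephb2 turned negative with total counts (-0.014), epithelial scaling (-0.27), no filter (-0.011), limma-voom (-0.012), the replicate block (-0.0068) and the composition covariate (-0.29), and ranged from -0.051 to 0.10 without 1 library. Znrf3 turned positive with the covariate (0.042) and Ascl2 negative with epithelial scaling (-0.076). The other 7 genes kept their sign in all 22 fits. Over all genes, 251 were lower in the main comparison, 396 with epithelial scaling, 473 with DESeq2, 1891 with quality weights and 145 to 2273 without 1 library. The 141 higher genes became 39 with total counts, 15 with epithelial scaling, 54 with no filter, 440 with DESeq2, 1372 with quality weights, 67 with the block, 79 with the covariate and 31 to 1178 without 1 library, with both highest counts without EPR cKO replicate 1. The cause was not tested.

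Replicate numbers are shared by the groups, and the labels do not say that they pair the samples. Same-numbered libraries correlated from -0.242 to 0.34 in their deviations, and 2 of 6 correlated best with their own number. Whether the numbers mark pairs was not tested. With the block, 0 of the 10 genes passed, Lgr5 was at -0.81 (adjusted p = 0.104), the Lgr5 to Lgr4 ratio had an exact p of 0.0312, which is the smallest that 6 pairs allow, and Cd24a was at -0.75 (adjusted p = 0.103). Ascl2 and Lgr5 rest on few counts, which limits what could be called for them.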
